A study of Mus musculus with 30 samples.

Results

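The renin-angiotensin system was followed through 9 genes: Agt, Ren1, Ace, Enpep, Agtr1a, Agtr1b, Agtr2, Agtrap and Atp6ap2. They were taken by symbol from the 78334 gene identifiers of the deposited expression table, after Ensembl identifiers had been matched to symbols. All 9 were listed in the table. The study sequenced 30 libraries in 9 groups from smooth muscle cells of the mouse aorta in culture, in which the long noncoding RNA CASC15 was lowered or raised. The growth protocol names both mouse and rat cells, and the labels give no strain. Serum was withdrawn for 48 h and transfection lasted at least 24 h. Knockdown was by GapmeRs, antisense oligonucleotides that direct RNase H to a bound RNA, and a plasmid served for overexpression.

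Libraries came from sequencing runs 2 and 3, and each run held its own controls. In run 2, all cells were untreated: control oligonucleotide (2 libraries), libraries labelled total CASC15 knockdown (2), control plasmid (3) and total CASC15 overexpression (3). In run 3, each group held 4 libraries: control oligonucleotide without treatment, with 10 ng/ml angiotensin II or with 10 to 30 ng/ml PDGF-BB, and long CASC15 knockdown without treatment or with 10 ng/ml angiotensin II. Treatment lasted 24 h, and PDGF-BB, a growth factor for smooth muscle cells, was given to control cells only. What "total" and "long" stand for is not stated. Titles of several knockdown and overexpression libraries name CASC16 up to CASC22 in place of CASC15, a number that climbs from library to library. The groups were taken from the library names, which carry 1 code per group, and the design text speaks of CASC15 alone, so which target those titles mean was not tested beyond the target counts given further on. The labels give a batch, P16 to P19, with at most 1 library per group in each batch. P16 occurs in run 3 only, and 7 of the 9 groups hold P19. The labels do not say that libraries of a group came from separate cultures or animals, so p-values measure the spread between these samples, which may be technical.

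The system turns a large precursor into a pressor peptide. Angiotensinogen, the product of Agt, is cut by renin (Ren1) to angiotensin I, which angiotensin-converting enzyme (Ace) trims to angiotensin II. Aminopeptidase A (Enpep) then shortens angiotensin II to angiotensin III. In vascular smooth muscle angiotensin II acts mainly through the AT1 receptor, which rodents carry as Agtr1a and Agtr1b, while Agtr2 encodes the AT2 receptor. Agtrap encodes a protein that binds the AT1 receptor and promotes its internalization. Atp6ap2 encodes the (pro)renin receptor, which is also an accessory subunit of the vacuolar proton pump.

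The promoters of Agt, Ace and Agtrap are shown because the differences reported for this system rest mainly on these 3 genes. Each is the RefSeq window on GRCm38.p6 from 250 bases before to 50 bases after the start, 5′ to 3′ on the gene's strand. Agt lies at chr8:124569657-124569956 on the minus strand, Ace at chr11:105967698-105967997 on the plus strand and Agtrap at chr4:148088015-148088314 on the minus strand. Capitals mark the motifs found on either strand: the TATA box TATAAA and the STAT motif TTCNNNGAA in Agt, the GC box GGGCGG and the TATA box (on the opposite strand) in Ace, and the E-box CACGTG and a GC box in Agtrap.
Agt promoter: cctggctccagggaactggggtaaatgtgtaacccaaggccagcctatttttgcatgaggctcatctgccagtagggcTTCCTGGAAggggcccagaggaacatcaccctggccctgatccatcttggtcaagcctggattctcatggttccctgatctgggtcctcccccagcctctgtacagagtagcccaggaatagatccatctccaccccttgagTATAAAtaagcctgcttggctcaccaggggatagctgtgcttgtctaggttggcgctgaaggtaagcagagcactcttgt
Ace promoter: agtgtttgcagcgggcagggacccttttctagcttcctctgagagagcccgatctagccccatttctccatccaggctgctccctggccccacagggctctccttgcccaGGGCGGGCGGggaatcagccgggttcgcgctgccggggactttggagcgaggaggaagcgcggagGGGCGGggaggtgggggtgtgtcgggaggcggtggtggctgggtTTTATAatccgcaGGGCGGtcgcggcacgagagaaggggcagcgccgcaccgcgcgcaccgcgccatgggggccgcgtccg
Agtrap promoter: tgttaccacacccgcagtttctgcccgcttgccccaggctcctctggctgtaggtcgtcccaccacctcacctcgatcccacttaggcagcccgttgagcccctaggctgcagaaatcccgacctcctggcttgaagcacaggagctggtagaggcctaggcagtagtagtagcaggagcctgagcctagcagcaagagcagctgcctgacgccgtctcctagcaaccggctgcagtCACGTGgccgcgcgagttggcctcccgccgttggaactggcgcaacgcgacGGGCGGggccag

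The Agt window held a TATA box 30 to 25 bases before the start and a STAT motif 172 to 164 bases before it, with a GC content of 54.7%. In the Ace window, GC content was 69.7%, and 4 GC boxes were found, of which the first 2 overlap in the letters printed. RefSeq holds a further Ace window at chr11:105974939-105975238 on the plus strand, with a GC content of 59% and 0 matches to these motifs, which is not printed. The Agtrap window had no TATA box, a CACGTG E-box 13 to 8 bases before the start and a GC content of 64.7%. Over all 32851 such windows the median GC content was 52.7%. A TATA box was found in 13.6% of them, a STAT motif in 8.3%, a GC box in 35.7% and CACGTG in 7.15%. The Enpep window, chr3:129332700-129332999 on the minus strand, held a STAT motif 141 to 133 bases before the start, a C/EBP motif (TTGCNNAA, found in 10.8% of windows) and a pair of TATA boxes on the opposite strand. AP-1 (TGANTCA) and CArG motifs, found in 7.81% and 1.63% of all windows, were matched in no window of a member. RefSeq windows were found for 8 of the 9 genes, all but Agtr1a. These matches describe letters only and were not tested against expression.

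Expected counts were rounded and scaled to sequencing depth as CPM, counts relative to the library's total, with TMM factors within each run. Total counts per library were 18007199 to 21881959 in run 2 and 15771490 to 30362047 in run 3. A group was taken as at the floor where no library held more than 3 counts of a gene, which corresponds to 0.134 to 0.179 CPM in run 2 and 0.102 to 0.19 CPM in run 3. The target, read from 2610307P16Rik, was at a log2 fold change of 6.79 under overexpression (adjusted p = 1.88e-05) and -0.95 under long knockdown (adjusted p = 0.000832). In the libraries labelled total CASC15 knockdown it was not lowered (log2 fold change 0.36, adjusted p = 0.739), so these libraries are named by their label throughout. Of 8 smooth muscle markers, 6 to 8 were above the floor in each group, with a summed level of 175 to 536 CPM carried mainly by Acta2. Cnn1 and Myh11, markers of contractile smooth muscle, were both at the floor in untreated control cells of run 3. The 6 fibroblast markers, led by Dcn, summed to 608 to 2250 CPM, above the smooth muscle sum in every group.

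The genes fell into 3 classes of abundance. Agtr1a, Agtr1b, Agtr2 and Ren1 stayed at or under the floor in any group. Agt, Ace and Enpep were measured at low counts. Agtrap held 373 to 934 counts per library and Atp6ap2 650 to 2816. Accordingly 5 of the 9 genes passed the filter on low counts and were tested in each run, and no test was made for the other 4.

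**Figure D1:**
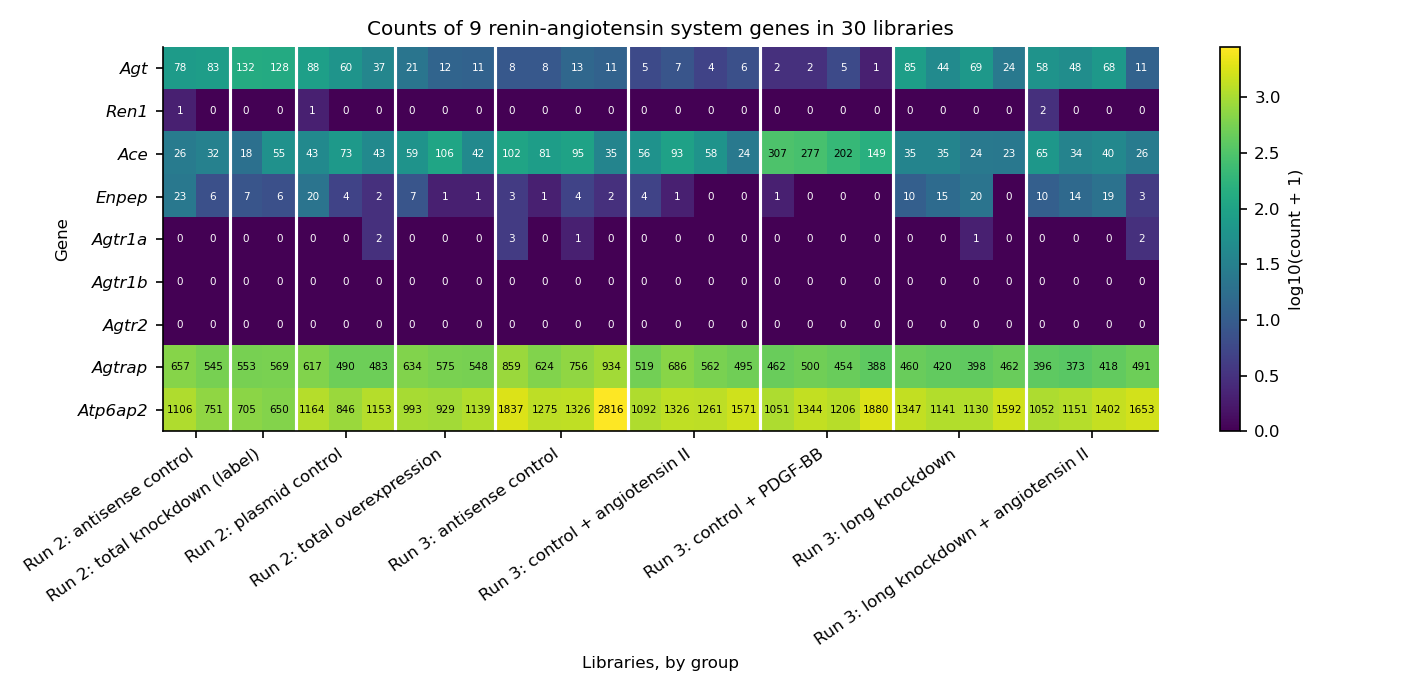
Rounded counts of the 9 genes (rows) in each of the 30 libraries (columns, separated by group), with colour on a log10(count + 1) scale. Agtr1b and Agtr2 are at 0 in every library, Agtr1a and Ren1 do not exceed 3 counts, and Atp6ap2 reaches 2816.

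The angiotensin receptors were almost undetected. Agtr1b and Agtr2 held 0 counts among 591568132 counts in all 30 libraries, and a floor of 3 counts over all libraries corresponds to 0.00508 CPM. Agtr1a, the main AT1 receptor gene of rodent vessels, held 9 counts in all, spread over 5 libraries: 3 and 1 in untreated run 3 controls, 2 in a plasmid control, 1 in an untreated long knockdown library and 2 in a long knockdown library with angiotensin II. None of the 4 control libraries that received angiotensin II held an Agtr1a count. Limits of this kind cover counting error only, and reads from a PCR-amplified library without molecular identifiers are not independent molecules. No 75-base stretch of the annotated transcripts of the 3 receptor genes occurred in a transcript of another gene (0 of 2997, 0 of 2136 and 0 of 3252 stretches for Agtr1a, Agtr1b and Agtr2), so reads of this length could be assigned to each gene alone in that annotation.

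Renin mRNA was at the same level. Ren1 held 4 counts in 3 libraries, with 1 each in an oligonucleotide control and a plasmid control of run 2 and 2 in a long knockdown library with angiotensin II. Its transcripts shared 0 of 1583 stretches with other genes. Ren2, a second renin gene of some mouse strains, had no matched identifier and was not analysed here.

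Of the 5 genes tested, the numbers that passed an adjusted p of 0.05 (edgeR's quasi-likelihood test, Benjamini-Hochberg over all genes tested, 15350 in run 2 and 15103 in run 3) differed between comparisons and are read against the share of all genes called. None of the 5 passed for the libraries labelled total CASC15 knockdown against the control oligonucleotide, where 2.07% of genes were called, or for control plasmid against control oligonucleotide, where 1.18% were. For total CASC15 overexpression, 1 of 5 was called, against 1.65% of all genes. Long CASC15 knockdown called 4 of 5 in untreated cells, against 25% of all genes, and 3 of 5 under angiotensin II, against 26.7%. Without the filter on low counts the count in untreated cells was 2, where 3051 of 32656 genes were called, and leaving out single libraries gave 2 to 3. With batch as a block the counts were 5 of 5 in both, against 40.6% and 41.3% of all genes. PDGF-BB called 3 of 5 against untreated cells (43.6% of all genes) and 2 of 5 against angiotensin II (42.4%). Angiotensin II called 0 of 5 in control cells, in knockdown cells, over both arms and in the test of whether the arms differ, and 0% of all genes in each of the 4. With 5 genes, the shares under long knockdown and PDGF-BB were not tested against those backgrounds.

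**Figure D2:**
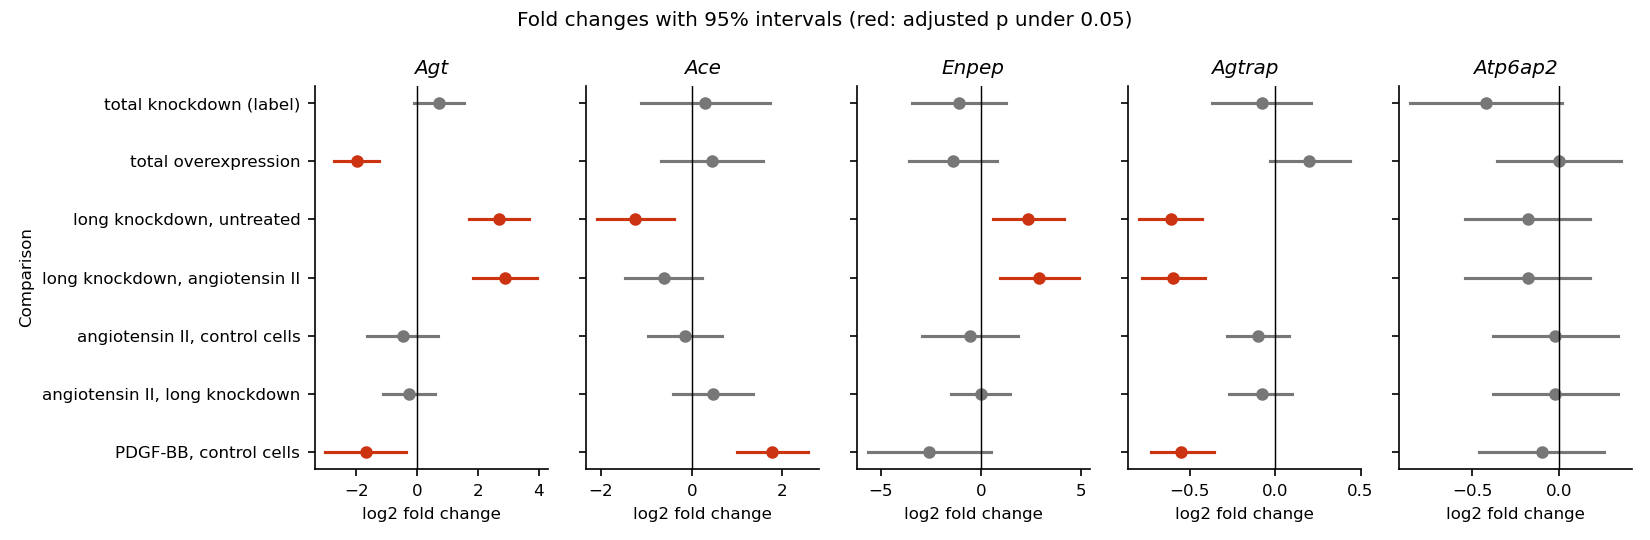
Log2 fold changes (horizontal axis, one panel per gene) with 95% intervals from edgeR's quasi-likelihood fit in 7 comparisons (vertical axis), red where the adjusted p is under 0.05. Agt lies at -1.99 under overexpression and at 2.68 and 2.89 under long knockdown, and no interval for angiotensin II against no treatment leaves 0.

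Agt, the precursor gene, was higher under long knockdown. In untreated control cells of run 3 its level was 0.336, 0.433, 0.648 and 0.372 CPM in batches P16 to P19. Long CASC15 knockdown gave 3.97, 2.45, 3.75 and 1.27 CPM in the same batches. All 4 knockdown libraries lay above all 4 controls, and the lowest of them was P19. The group means were 2.86 ± 1.25 and 0.447 ± 0.14 CPM (SD, n = 4 each), 6.4-fold apart, or 2.68 on the log2 scale (SE 0.47, adjusted p = 0.000282). Groups that do not overlap in this comparison were found for 24.5% of all genes.

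The same difference was measured in cells that received angiotensin II. Agt was at 0.316, 0.343, 0.234 and 0.37 CPM in control cells with the peptide and at 2.98, 2.59, 3.39 and 0.548 CPM in knockdown cells with it. The groups again did not overlap (24.8% of all genes did not in this comparison), and P19 was again the lowest knockdown library. Knockdown cells were higher by 2.89 on the log2 scale (SE 0.507, adjusted p = 0.000281). Both results were called under each of the 15 alternatives run for them, leave-one-out fits included, with log2 fold changes of 2.47 to 2.92 in untreated cells and 2.66 to 3.28 under angiotensin II. Within batches the log2 ratio was 1.77 to 3.56 in untreated cells and 0.57 to 3.86 under angiotensin II, higher in 4 of 4 batches each.

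Overexpression of total CASC15 went with a lower Agt level. The plasmid controls held 3.96, 3.3 and 2.1 CPM in batches P17, P18 and P19, and the overexpressing libraries 1.05, 0.718 and 0.572 CPM. Every overexpressing library lay below every control, where 18% of all genes did not overlap, and in both groups P17 was highest and P19 lowest. The means were 3.12 ± 0.946 and 0.779 ± 0.244 CPM (SD, n = 3 each), which differ by -1.99 on the log2 scale (SE 0.332, adjusted p = 0.0193). The call was lost when only those groups were fitted (adjusted p = 0.102) and when plasmid control P17 or P18, or overexpression P18 or P19, was left out (adjusted p 0.0506 to 0.0992, log2 fold changes -1.96 to -1.79). With batch as a block Agt was called (log2 fold change -1.98, adjusted p = 0.000515), where 2721 of 15350 genes were called. Within batches the log2 ratio was -2.20 to -1.88. The 4 hepatocyte and kidney markers summed to 0.0598 to 0.3 CPM in overexpressing cells, with all 4 at the floor, and to 0.54 to 0.624 CPM in plasmid controls. The 4 pericyte markers summed to 50.2 to 206 and 27.2 to 87.3 CPM. No marker of either list was called, but with the block 1 of the 2 tested pericyte markers, Rgs5, was higher, at 1.60 (adjusted p = 5.65e-05). The fibroblast markers summed to 1130 to 1330 against 960 to 1350 CPM and the macrophage and leukocyte markers to 0.419 to 0.883 against 0.624 to 1.1 CPM. None of these was called either. With the block, where 2721 of 15350 genes were called, 1 of 6 fibroblast markers was higher and 2 were lower. Of 2 macrophage and leukocyte markers, Csf1r was higher (adjusted p = 0.0418), with no fold given as it was at the floor in plasmid controls. Their part in the Agt values was not tested.

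In the libraries labelled total CASC15 knockdown, Agt was at 6.62 and 5.73 CPM, against 3.47 and 4.1 CPM in the 2 controls. The groups did not overlap, which was so for 49.4% of all genes in this comparison of 2 against 2. A log2 fold change of 0.70 (95% interval -0.12 to 1.53, adjusted p = 0.478) was not called. The 6 macrophage and leukocyte markers summed to 16.9 to 20.6 CPM in the labelled libraries, carried by Cd68, and to 0.49 to 0.79 CPM in the controls. Ptprc, Adgre1 and Tyrobp, which define those cells, were at the floor in both groups, while both tested markers of the list were called higher. Cd68 was at 5.19 (adjusted p = 0.00576). Csf1r (adjusted p = 0.0262) was at the floor in the controls, so no fold is given. The hepatocyte and kidney markers summed to 1.45 to 2.82 against 0.148 to 0.178 CPM, with Alb and Umod at the floor. Of the 2 tested, Akr1b7 was called higher (adjusted p = 0.0398), and with the block Apoa1 was called too. The pericyte markers summed to 164 to 212 against 106 to 108 CPM and the endothelial markers to 6.02 to 9.99 against 2.81 to 3.9 CPM, with Cdh5 and Cldn5 at the floor. With the block, where 14.4% of all genes were called, 2 of 2 tested endothelial and 1 of 2 pericyte markers were higher, and 2 of 6 fibroblast markers were lower. Of 7 smooth muscle markers, 1 was called higher in the main fit (adjusted p = 0.0239), where 2.07% of all genes were called, and 2 with the block. The part of these markers in the Agt values was not tested.

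PDGF-BB went the other way from long knockdown. Control cells with PDGF-BB held 2, 2, 5 and 1 counts of Agt, or 0.112, 0.103, 0.263 and 0.0509 CPM. All 4 libraries lay below all 4 untreated controls, at or near the floor of 3 counts, in a comparison where 40.7% of all genes did not overlap. Agt was at -1.70 on the log2 scale (SE 0.635, adjusted p = 0.0361). When only the groups compared were fitted, Agt did not pass the filter on low counts and was not tested. In run 3 it passed through the knockdown libraries, which are no part of this comparison. Agt lost its call without untreated control P17 or P18, or without PDGF-BB library P16, P17 or P19 (adjusted p 0.0524 to 0.101, log2 fold changes -1.73 to -1.46). Against angiotensin II the difference of -1.22 was not called (adjusted p = 0.158).

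Markers of other cell types moved with some of these results. The 4 pericyte markers summed to 39.2 to 108 CPM in untreated long knockdown cells and to 11 to 22.6 CPM in their controls, carried by Rgs5 and Notch3, while Kcnj8 and Abcc9 were at the floor in every group. Under angiotensin II the sums were 41.4 to 90.8 and 13.3 to 21.8 CPM. Rgs5 and Notch3, the pericyte markers tested, were called higher in both comparisons. The 4 hepatocyte and kidney markers summed to 0.478 to 1.03 CPM in untreated knockdown cells against 0.0499 to 0.336 CPM in controls, with 1 of 4 above the floor in each group. That marker, Akr1b7, was called higher in untreated cells, at 1.94 (adjusted p = 0.00994), and under angiotensin II, at 1.67 (adjusted p = 0.0338). Endothelial markers summed to 1.91 to 3.78 against 1.25 to 2.65 CPM in untreated cells and to 2.24 to 4.16 against 0.863 to 2.22 CPM under angiotensin II, with Cdh5 and Cldn5 at the floor throughout. Vwf was called higher in both, at 2.10 in untreated cells (adjusted p = 0.0165). Under angiotensin II (adjusted p = 0.00159) it was at the floor in control cells, so no fold is given. In untreated cells 25% of all genes were called and under angiotensin II 26.7%. Of the 5 fibroblast markers tested, 2 were higher and 1 lower in untreated knockdown cells, and 1 higher and 1 lower under angiotensin II. Of the 7 smooth muscle markers tested, 2 were higher and 1 lower in each. Myh11 was among the higher ones, at 1.98 under angiotensin II (adjusted p = 0.0344). In untreated cells (adjusted p = 0.000764) it was at the floor in the controls, so no fold is given.

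Under PDGF-BB the fibroblast markers summed to 608 to 837 CPM against 1500 to 1730 CPM, the 6 endothelial markers to 0.356 to 1.05 against 1.25 to 2.65 CPM, and the hepatocyte and kidney markers to 0 to 0.0527 against 0.0499 to 0.336 CPM. The fibroblast sum was carried by Dcn. Of the 5 fibroblast markers tested, 3 were called lower, where 43.6% of all genes were called. Pi16 was called higher, at 0.57 (adjusted p = 0.0466), a call that the block ended. Pecam1, an endothelial marker, was called lower (-1.65, adjusted p = 0.0397). The pericyte markers summed to 6.26 to 22.4 against 11 to 22.6 CPM, with Notch3 called lower (-1.14, adjusted p = 2.46e-06). The smooth muscle markers summed to 196 to 219 against 241 to 276 CPM, with Acta2 called lower (-0.94, adjusted p = 2.15e-05) and Smtn higher (1.03, adjusted p = 1.78e-08). Of the hepatocyte and kidney list, Akr1b7 was tested and was called lower (adjusted p = 0.00765), and Alb, Apoa1 and Umod were at the floor in both groups. The part of these markers in the Agt, Ace and Enpep values was not tested. In RNA from bulk cultures, fewer cells of a type and less RNA per cell cannot be told apart.

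**Figure D3:**
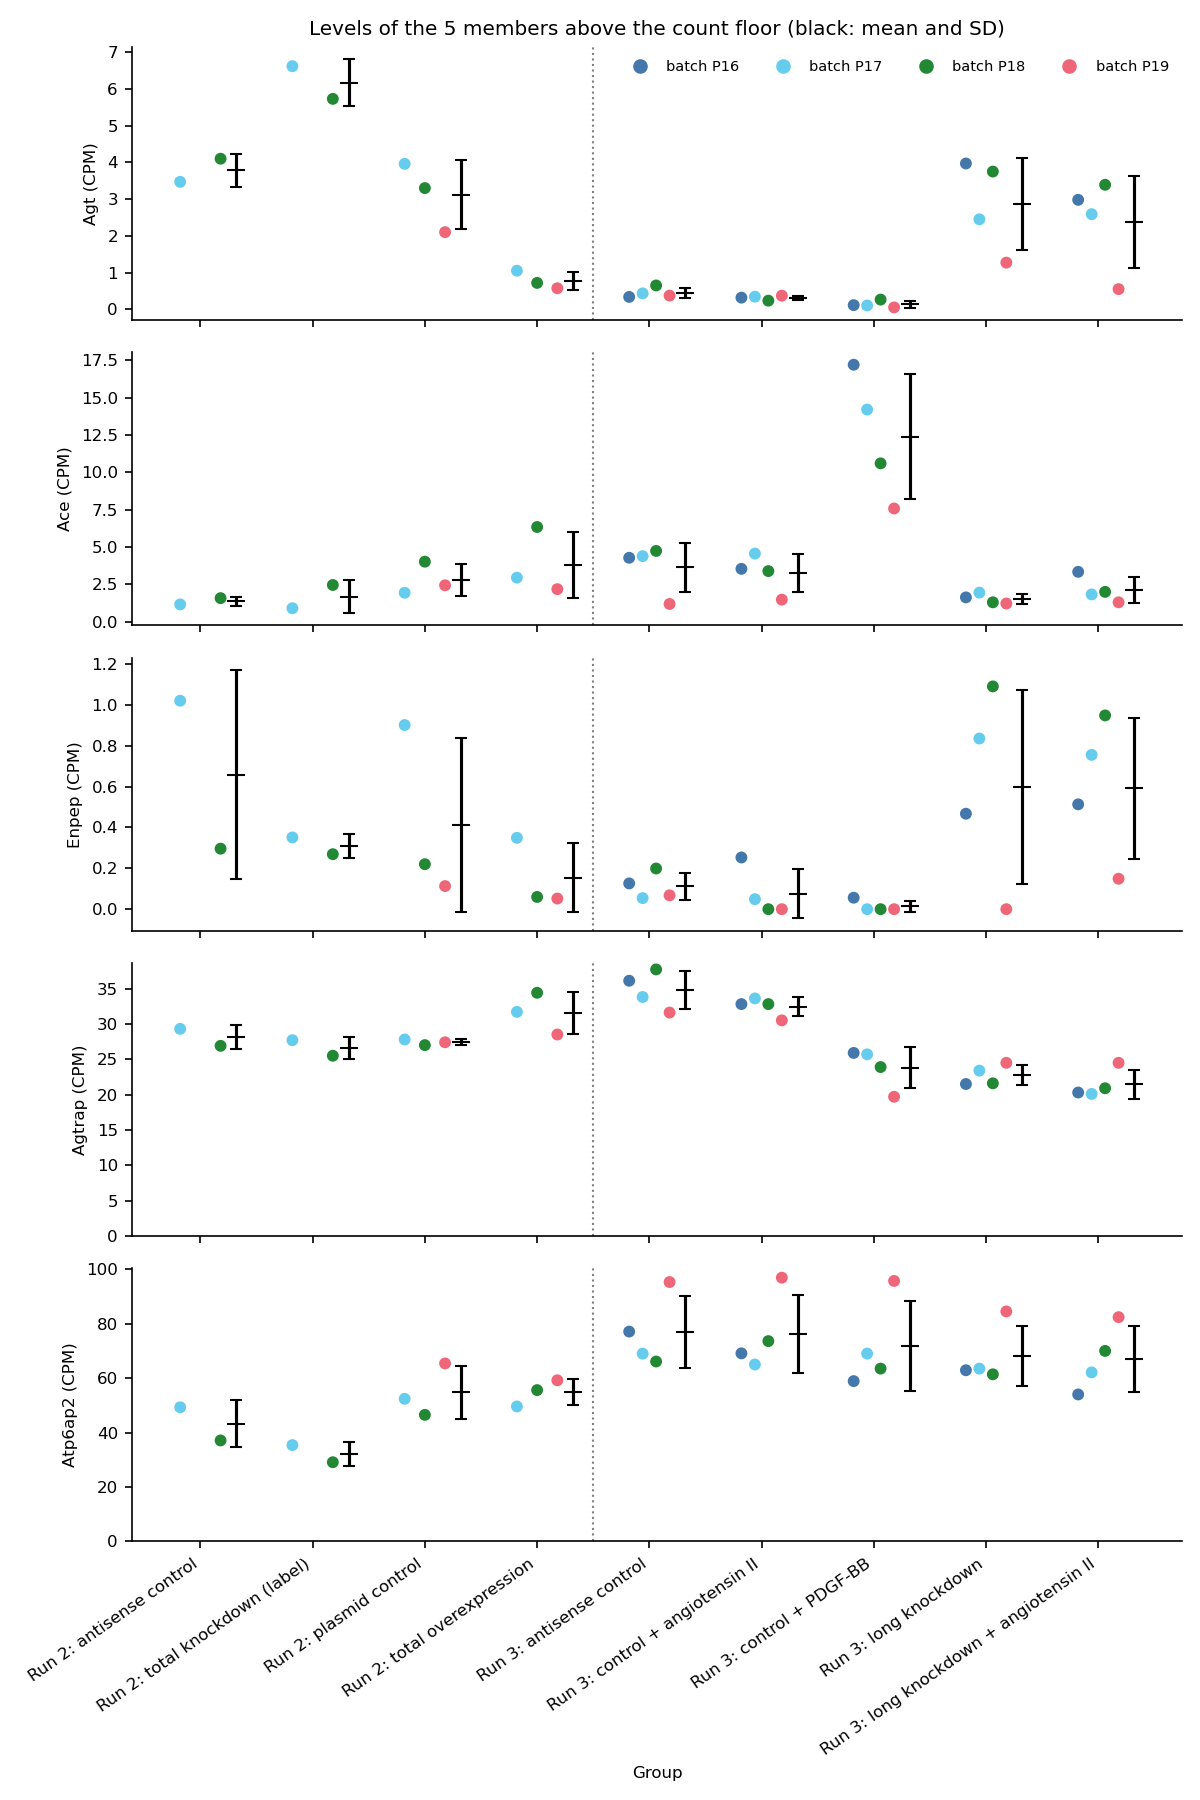
Levels (CPM, linear axes from 0 or just below) of the 5 tested genes in each library by group, coloured by batch, with black bars for mean and SD and a dotted line between run 2 and run 3. The mean of Agt is higher in long knockdown cells than in the other groups of run 3 and lower in overexpressing cells than in the other groups of run 2, Ace is highest under PDGF-BB, and P19 gives the highest Atp6ap2 value in every group that holds it.

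Ace, which forms angiotensin II from angiotensin I, rose under PDGF-BB. Untreated control cells held 4.28, 4.39, 4.74 and 1.19 CPM in batches P16 to P19, and PDGF-BB gave 17.2, 14.2, 10.6 and 7.58 CPM. The lowest treated library lay above the highest control, and P19 was the lowest in both groups. The means were 12.4 ± 4.2 and 3.65 ± 1.65 CPM (SD, n = 4 each), 3.44-fold apart, or 1.78 on the log2 scale (SE 0.375, adjusted p = 0.000768). Groups that do not overlap were found for 40.7% of all genes under PDGF-BB. The within-batch log2 ratio was 1.17 to 2.68, higher in 4 of 4 batches, and the result was called under all 15 alternatives.

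Against the cells with angiotensin II (3.54, 4.56, 3.39 and 1.48 CPM) the Ace level under PDGF-BB was higher by 1.93 log2 units (SE 0.382, adjusted p = 0.000464). This is the direct test between both agents, which share the untreated controls when each is compared with no treatment. The agents also differed in concentration, 10 to 30 ng/ml against 10 ng/ml.

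Under long knockdown Ace was lower in untreated cells. Its level was 1.63, 1.95, 1.3 and 1.22 CPM, and the groups overlapped through the untreated control of P19, at 1.19 CPM. Ace was at -1.24 on the log2 scale (SE 0.411, adjusted p = 0.0331). The call was lost without a filter on low counts (adjusted p = 0.102) and when control P16, P17 or P18, or knockdown P16, P18 or P19, was left out (adjusted p 0.0641 to 0.0845, log2 fold changes -1.28 to -1.09). Ace stayed called under the other 8 alternatives, with an adjusted p down to 1.93e-05. Among them were the block (-1.18, with 40.6% of all genes called) and the fit without P19 (6062 of 15159 genes called). Within batches 3 of 4 were lower, with a log2 ratio of 0.04 in the remaining one.

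Under angiotensin II, knockdown cells held 3.34, 1.83, 2.0 and 1.3 CPM of Ace, which overlapped with the controls listed above. A log2 fold change of -0.62 was not called (adjusted p = 0.272). With batch as a block it was (log2 fold change -0.60, adjusted p = 0.0392, where 41.3% of all genes were called), as it was without the libraries of batch P19 (-0.69, adjusted p = 0.0186). The ratio was lower in 4 of 4 batches, from -1.31 to -0.09.

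In run 2, Ace was not called in any comparison. Overexpressing cells held 2.95, 6.34 and 2.18 CPM against 1.94, 4.02 and 2.44 CPM in plasmid controls (log2 fold change 0.45, 95% interval -0.67 to 1.57, adjusted p = 0.728). The plasmid controls lay above the oligonucleotide controls, at 1.16 and 1.58 CPM, with a log2 fold change of 1.03 (adjusted p = 0.592), where 28.1% of all genes did not overlap. The libraries labelled total CASC15 knockdown, at 0.903 and 2.46 CPM, spanned their controls. Of 5354 stretches of 75 bases in Ace transcripts, 151 (2.82%) also occurred in the neighbouring annotation Gm11651, so a small share of its reads could have been divided between the 2 genes.

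Enpep, which converts angiotensin II to angiotensin III, was measured at the edge of detection. No run 3 library outside the knockdown groups held more than 4 counts, below the filter's minimum count of 10. The gene thus passed the filter in run 3 only through the knockdown libraries, where it was higher. It was not tested when only the groups of either long knockdown comparison were fitted. Untreated control cells of run 3 held 3, 1, 4 and 2 counts, and long knockdown cells 10, 15, 20 and 0. Knockdown cells were higher in P16, P17 and P18, and the single library at 0 counts, P19, lay below every control. The means were 0.597 ± 0.473 and 0.112 ± 0.0662 CPM (SD, n = 4 each), which differ by 2.37 on the log2 scale (SE 0.847, adjusted p = 0.0459). DESeq2 gave 2.41 (adjusted p = 0.0712), the fit without a filter gave an adjusted p of 0.0673, and 7 of 8 leave-one-out fits lost the call, all but the one without knockdown P19 (adjusted p 0.0549 to 0.166, log2 fold changes 1.91 to 2.72).

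Under angiotensin II, control cells held 4, 1, 0 and 0 Enpep counts and knockdown cells 10, 14, 19 and 3. The 2 groups overlapped through P16 of the controls and P19 of the knockdown. Enpep was at 2.92 on the log2 scale (SE 0.954, adjusted p = 0.0281). It lost its call without control P17, P18 or P19 or knockdown P17 or P18 (adjusted p 0.0662 to 0.0837, log2 fold changes 2.53 to 2.78), and was 4.59 (adjusted p = 0.0124) without control P16.

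Enpep held 1, 0, 0 and 0 counts under PDGF-BB, which is at the floor. No fold is given here, and the test did not call it (adjusted p = 0.171). In run 2 the counts were 23 and 6 in oligonucleotide controls, 7 and 6 in the libraries labelled total CASC15 knockdown, 20, 4 and 2 in plasmid controls and 7, 1 and 1 in overexpressing cells. The first library of each group, P17, was the highest, and none of the 3 comparisons of run 2 called the gene.

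Agtrap, whose product lowers AT1 receptor signalling at the cell surface, was expressed in every library, at 19.7 to 37.7 CPM. Untreated controls of run 3 held 36.1, 33.8, 37.7 and 31.6 CPM. Long knockdown gave 21.5, 23.4, 21.6 and 24.5 CPM, and PDGF-BB gave 25.9, 25.7, 23.9 and 19.7 CPM. Every library of both groups lay below every untreated control, where 24.5% of all genes did not overlap under long knockdown and 40.7% under PDGF-BB.

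The log2 fold change of Agtrap was -0.61 under long knockdown (SE 0.0891, adjusted p = 4.06e-05), so that knockdown cells held 65.4% of the control level. Under angiotensin II knockdown gave -0.60 (SE 0.0897, adjusted p = 5.68e-05), from 20.3, 20.1, 20.9 and 24.5 CPM against 32.8, 33.6, 32.8 and 30.5 CPM. PDGF-BB gave -0.55 (SE 0.0889, adjusted p = 5.15e-05), or 68.5% of the untreated level, and -0.45 against angiotensin II (SE 0.0894, adjusted p = 0.000444). Agtrap was lower in 4 of 4 batches in each of these 4 comparisons, and each was called under all 15 alternatives. The comparisons with untreated control cells share those 4 control libraries, so the falls under knockdown and under PDGF-BB are not independent.

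In run 2, Agtrap was at 31.7, 34.4 and 28.5 CPM in overexpressing cells and at 27.8, 27.0 and 27.4 CPM in plasmid controls. The groups did not overlap, which was so for 18% of all genes. The log2 fold change of 0.20 was not called (95% interval -0.03 to 0.44, adjusted p = 0.411). The libraries labelled total CASC15 knockdown, at 27.7 and 25.5 CPM, differed from their controls, at 29.3 and 26.9 CPM, by a log2 fold change of -0.08 (95% interval -0.37 to 0.21, adjusted p = 0.882).

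Atp6ap2, the (pro)renin receptor gene, was the most abundant member. Per kilobase of exon, its mean level in untreated control cells of run 3 was 29.4 CPM, against 8.21 for Agtrap, 0.69 for Ace, 0.237 for Agt and 0.0238 for Enpep. In run 2 controls the level of Agt per kilobase, 2.0 CPM, was above that of Ace, 0.259 CPM. Atp6ap2 passed the main test in none of the 11 comparisons.

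Untreated controls of run 3 held 77.1, 69.0, 66.1 and 95.3 CPM of Atp6ap2, and long knockdown cells 62.9, 63.5, 61.4 and 84.5 CPM. The groups overlapped, and P19 was the highest of both. This gave a difference of -0.18 on the log2 scale (SE 0.171, 95% interval -0.54 to 0.18, adjusted p = 0.479). With batch as a block the same value had a smaller SE of 0.0684 and was called (adjusted p = 0.0407), where 40.6% of all genes were called. Under angiotensin II the value was also -0.18 (adjusted p = 0.472, and 0.0407 with the block). The effect in both cases is a level of 88.4% and 88.2% of control.

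Under PDGF-BB Atp6ap2 was at 58.9, 69.0, 63.5 and 95.7 CPM and was not called (log2 fold change -0.10, 95% interval -0.46 to 0.26, adjusted p = 0.664). In the libraries labelled total CASC15 knockdown it was at 35.4 and 29.1 CPM against 49.3 and 37.1 CPM in controls, without overlap, as were 49.4% of all genes (log2 fold change -0.42, adjusted p = 0.414). Overexpressing cells, at 49.6, 55.6 and 59.2 CPM, lay within the range of their controls, 52.4, 46.5 and 65.4 CPM (log2 fold change 0.00, 95% interval -0.36 to 0.36). Of its 2543 stretches of 75 bases, 15 (0.59%) also occurred in Gm36448.

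The vacuolar proton pump, of which the Atp6ap2 product is an accessory subunit, was followed with 17 other subunit genes, all tested. Long knockdown called 0 of them in untreated cells and 0 under angiotensin II, where 25% and 26.7% of all genes were called, with median log2 fold changes of -0.08 and -0.00 beside 0.02 and 0.01 over all genes. In each, 1 had an unadjusted p under 0.05, and DESeq2 called 0. With batch as a block the counts were 2 higher and 3 lower, and 3 higher and 3 lower, where 40.6% and 41.3% of all genes were called. Under PDGF-BB 2 subunit genes rose and 3 fell, against 43.6% of all genes called. Blocking on batch, where 54.5% of all genes were called, gave 3 that rose and 6 that fell. Among the genes that fell were Atp6v1g1 at -0.48 (adjusted p = 0.000307) and Atp6v0b at -0.41 (adjusted p = 0.000496).

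Batch P19 stood apart for several of these genes. Atp6ap2 was highest in P19 in 7 of the 7 groups that hold this batch, at 1.13 to 1.5 times the mean of the other libraries of the group. Ace was lowest in P19 in 6 of 7 groups, at 0.266 to 0.819 times that mean. Agt was lowest there in 5 of 7, at 0.183 to 1.24 times. With the P19 libraries left out, 1 member was called under overexpression, where 844 of 15164 genes were called. Long knockdown called 4 in untreated cells (6062 of 15159 genes) and 4 with angiotensin II (6049 of 15159). PDGF-BB called 3 against no treatment (7409 of 15159) and 2 against angiotensin II (7387 of 15159). The labels say only that P19 is a batch, and what differed in it was not tested.

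**Figure D4:**
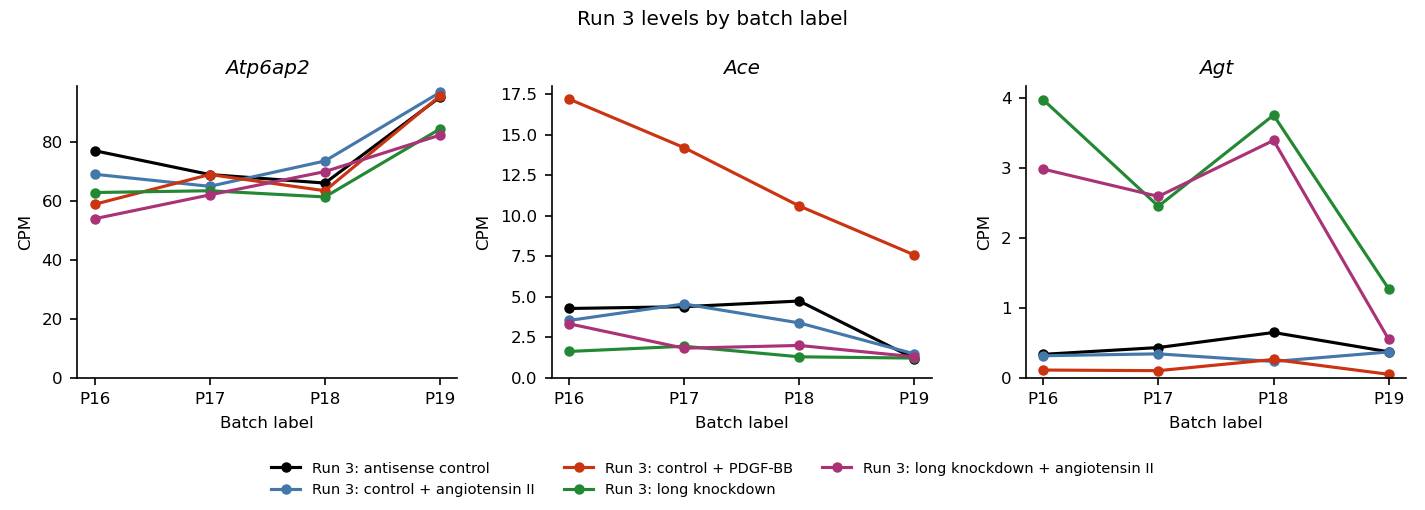
Levels (CPM, axes from 0) of Atp6ap2, Ace and Agt by batch label in the 5 groups of run 3, one line per group joining libraries of the same treatment, not a time course. P19 is the highest batch for Atp6ap2 in all 5 groups, at 82.4 to 96.9 CPM, while Ace under PDGF-BB and Agt under long knockdown are lowest in P19.

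None of the 5 tested genes passed the test for angiotensin II given for 24 h. In control cells the log2 fold changes were -0.48 for Agt (95% interval -1.65 to 0.69), -0.14 for Ace (-0.96 to 0.67), -0.56 for Enpep (-2.96 to 1.84), -0.10 for Agtrap (-0.28 to 0.08) and -0.02 for Atp6ap2 (-0.38 to 0.34), each with an adjusted p of 1. The intervals of Agtrap and Atp6ap2 are narrow, while those of Agt and Enpep do not exclude changes of more than 2-fold. Agt and Agtrap were lower with the peptide in 4 of 4 batches, by -1.47 to -0.01 and by -0.20 to -0.01 log2 units.

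In long knockdown cells the peptide gave -0.27 for Agt, 0.47 for Ace, -0.01 for Enpep, -0.08 for Agtrap and -0.02 for Atp6ap2, and none of the 5 was called. The difference between the responses of both arms was 0.21 for Agt (95% interval -1.22 to 1.63) and 0.61 for Ace (-0.59 to 1.82), also not called. Over the whole table edgeR called 0 of 15103 genes for the peptide in control cells, with 156 at an unadjusted p under 0.05, while DESeq2 called 1. In knockdown cells the counts were 0, 174 and 0, over both arms 0, 159 and 0, and for the difference between the arms 0, 166 and 2. Each count at an unadjusted p under 0.05 is less than 0.05 of the genes tested, the average share where nothing differs. The block gave 262 in control cells and 324 in knockdown cells. These tests were therefore cautious, and the lack of calls does not show a lack of response. Of the 5 members, none had an unadjusted p under 0.05 in these 4 tests, and DESeq2 called none.

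Genes known to respond to angiotensin II were read from a list of 30, of which 29 were tested in run 3. They include immediate early transcription factors, growth factors and matrix or inflammatory genes. Cells were sampled only after 24 h of treatment, so a change that had passed by then could not be seen. With angiotensin II, edgeR called 0 of the 29 in control cells, with or without the block, and DESeq2 also called 0. An unadjusted p under 0.05 was found for 0 of them, and for 1 with the block. Their log2 fold changes ran from -0.49 to 0.51 with a median of -0.01, beside 0.00 over all genes. In knockdown cells edgeR also called 0, with 1 at an unadjusted p under 0.05 and values from -0.38 to 3.91, and the difference between the arms gave 0 called and 2 at an unadjusted p under 0.05. The value of 3.91 belongs to Il6, which had no counts in the untreated knockdown libraries, so its size is not a measured fold.

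With PDGF-BB, 16 of the same 29 genes were higher and 3 were lower, with a median of 0.64 beside -0.02 over all genes, of which 23.6% were called higher and 20% lower. Nr4a1, a nuclear receptor induced within hours by many stimuli, was at 1.66 (adjusted p = 1.42e-08). Egr1, an immediate early transcription factor, was at 2.34 (adjusted p = 8.28e-07). The EGF receptor ligands Ereg and Hbegf were at 1.46 (adjusted p = 2.67e-07) and 1.15 (adjusted p = 4.19e-07). Direct comparison of the agents, in which 42.4% of all genes were called, gave 16 of the 29 higher and 3 lower under PDGF-BB than under angiotensin II. Doses differed between the agents, and the list holds genes that many stimuli share.

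**Figure D5:**
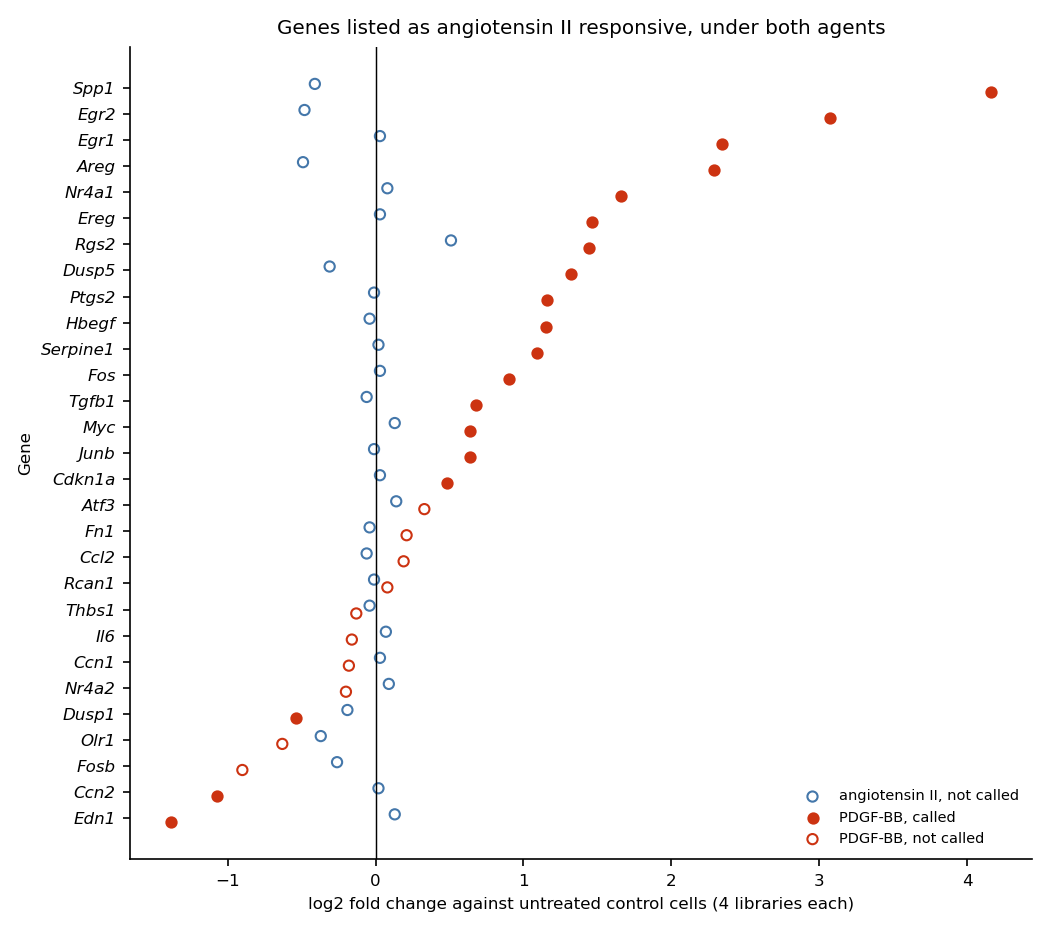
Log2 fold changes (horizontal axis) against untreated control cells, 4 libraries per group, for the 29 tested genes listed as responsive to angiotensin II (vertical axis, ordered by their value under PDGF-BB), filled where called by edgeR. Under angiotensin II all lie between -0.49 and 0.51 and none is called, while 16 are called higher and 3 lower under PDGF-BB.

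Long knockdown called 4 of these 29 higher and 7 lower in untreated cells, where 25% of all genes were called, with a median of -0.04. The inflammatory genes Il6 and Ccl2 and the matrix genes Fn1 and Thbs1 were among the lower ones. Il6 fell from 2.52 ± 0.695 CPM (SD, n = 4) to 0 counts in all 4 knockdown libraries (adjusted p = 1.48e-07). Ccl2 was at -2.01 (adjusted p = 1.87e-06), Fn1 at -0.76 (adjusted p = 5.1e-05) and Thbs1 at -0.47 (adjusted p = 0.000678).

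Enzymes that cut angiotensin peptides outside the main path, with alternative receptors, formed a list of 22, of which 21 were in the table and 15 were tested in run 3. Mas1, the receptor of angiotensin-(1-7), never exceeded 2 counts. In untreated cells, 2 of the 15 rose and 4 fell under long knockdown, where 25% of all genes were called. Blocking on batch, with 40.6% of all genes called, gave 4 that rose and 7 that fell. Thop1, a peptidase that forms angiotensin-(1-7), was at -0.53 (adjusted p = 0.000261), Dpp3, a dipeptidyl peptidase, at -0.34 (adjusted p = 0.000823), Rnpep, an aminopeptidase, at -0.45 (adjusted p = 0.00386), and Mcpt4, a mast cell chymase, at 1.63 (adjusted p = 0.00331). Under PDGF-BB 3 were higher and 3 lower, against 43.6% of all genes called. Thop1 was higher there, at 0.57 (adjusted p = 4.11e-05), as was the prolyl endopeptidase Prep, at 0.65 (adjusted p = 5.28e-05), and Ctsa, a lysosomal carboxypeptidase, was lower, at -0.62 (adjusted p = 1.4e-06).

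Proteins that couple the AT1 receptor to the cell or switch it off were followed through 28 genes, of which 26 were tested. Long knockdown called 8 higher and 1 lower, against 25% of all genes called, with a median of 0.05 beside 0.02 over all genes. The G protein subunit Gnaq (0.43, adjusted p = 0.000144), the receptor kinase Grk2 (0.40, adjusted p = 5.82e-05), beta-arrestin 1 (Arrb1, 0.30, adjusted p = 0.00036) and the inositol trisphosphate receptor Itpr1 (0.36, adjusted p = 0.000635) were higher. In the libraries labelled total CASC15 knockdown, Gnaq was lower, at -1.26 (adjusted p = 0.0124), as was protein kinase C alpha (Prkca, -1.57, adjusted p = 0.0165). These 2 were the ones called there, against 2.07% of all genes, while with the block, where 14.4% of all genes were called, 1 was higher and 4 were lower. PDGF-BB called 7 higher and 7 lower, against 43.6% of all genes called, and angiotensin II 0. Of 8 genes for kinin and steroid receptors and their partners, 2 were tested in run 3. Nr3c2, the mineralocorticoid receptor, was lower under PDGF-BB, at -1.43 (adjusted p = 0.00464), and higher under long knockdown with angiotensin II, at 0.96 (adjusted p = 0.0358). In untreated knockdown cells it was at 0.65 and was not called.

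Control cells with the oligonucleotide were sequenced in both runs, and the levels of the members differed between them. Scaled over all 30 libraries together, Agt was at 3.75 CPM in run 2 and 0.453 CPM in run 3, 8.29 times higher in run 2. In batch P17 the values were 3.46 and 0.436 CPM, and in P18 they were 4.04 and 0.651 CPM. Enpep was 5.81 times higher in run 2 (0.656 against 0.113 CPM). Ace was 2.72 times higher in run 3 (3.68 against 1.35 CPM), Atp6ap2 1.82 times (78 against 42.8 CPM) and Agtrap 1.27 times (35.2 against 27.8 CPM). The run and anything else that differed between these cultures cannot be told apart, and no test was made across the runs.

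Ordered over all 9 groups on this joint scale, Agt was highest in the libraries labelled total CASC15 knockdown, at 6.01 CPM, followed without overlap by the run 2 oligonucleotide controls, and lowest under PDGF-BB, at 0.134 CPM. Ace was highest under PDGF-BB, at 12.6 CPM, and this group did not overlap with the next, total CASC15 overexpression at 3.75 CPM. For Agtrap each pair of neighbours in the order overlapped, from 35.2 CPM in untreated run 3 controls to 21.5 CPM in long knockdown with angiotensin II. Atp6ap2 neighbours overlapped down to the oligonucleotide controls of run 2, at 42.8 CPM, which lay above the libraries labelled total CASC15 knockdown, at 31.4 CPM. Enpep neighbours overlapped throughout.

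The genes whose pattern over the 20 libraries of run 3 was most like each member were taken among 10181 or 10182 candidates, by Pearson correlation of log2 CPM. For Agt they were Cdh13 (r = 0.96, and 0.14 over the 10 libraries of run 2) and Tshz2 (0.96 and 0.60). For Ace they were Cspg4 (0.94 and -0.09) and Itga5 (0.93 and 0.04). For Enpep they were Gata6 (0.93 and 0.87) and Col5a2 (0.92 and 0.49). For Agtrap they were Atoh8 (0.95 and -0.27) and Sat1 (0.94 and -0.53), and for Atp6ap2 they were Vps35 (0.95 and 0.69) and Slc39a6 (0.94 and -0.28). These libraries share treatments, batches and depth, and the values are descriptions.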

How the data were processed

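RNA-seq gene expression was measured in 30 libraries of 9 groups. The deposited values are RSEM expected counts per gene, not scaled to depth. Per the submitters' processing notes the tools were STAR 2.7.11b and RSEM 1.3.1, and GRCm39 and mm10 are both named with no role given. The strandedness of counting is not given in the sources used here.

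Symbols came from a GENCODE mouse annotation, which matched 51486 of 78334 identifiers holding 98.7% of counts. Expected counts were rounded, filtered with filterByExpr (minimum count 10, minimum total 15), scaled by TMM and fitted run by run with edgeR 4.0.16 (robust quasi-likelihood, all groups of a run, no block) in R 4.3.3 with limma 3.58.1. A gene was called at a Benjamini-Hochberg adjusted p under 0.05, two-sided, within each of 11 comparisons. Fitting was tested on simulated data. Common dispersion gave a biological coefficient of variation of 0.232 for run 2 and 0.148 for run 3. Replicate libraries of a group differed beyond sampling noise in all 38 pairs (chi-square per degree of freedom 4.22 to 74.6).

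The labels give the batch that replicate numbers stand for, so the numbers pair the libraries. After removing group means, same-batch libraries of different groups had a mean correlation across genes of 0.23 in run 2 and 0.197 in run 3, against -0.121 and -0.0606 for other pairs. The pairs ran from 0.00503 upward, and 9 of 13 and 27 of 40 exceeded 0.1.

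The members and lists were chosen with earlier results of these data known. Named genes were all members, the target, at most 4 called genes per list and comparison by lowest adjusted p (otherwise at most 2 by level) and the 2 most similar genes per member; Il6, Mas1, Acta2, Dcn, Myh11, Cnn1 and other markers are named for their levels. A listed gene is not reported here. Alternatives were DESeq2 1.42.0, RLE scaling, no filter, a minimum mean of 1 CPM, fitting just the groups compared, batch as a block and leaving out each library. Leaving out P19 and joint scaling of both runs were added after seeing the data.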

Additional observations from a re-analysis of the deposited data

Results flagged for a closer look

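Among 25 combinations of a tested gene and a group of 4 libraries, 3 held a library far from the other 3, where chance marks about 1 in 20 groups. Ace was at 1.19 CPM in the untreated run 3 control of batch P19, while P16 to P18 lay at 4.28 to 4.74 CPM. Atp6ap2 was at 84.5 CPM in the untreated long knockdown library of P19, against 61.4 to 63.5 CPM in the other 3. Enpep was at 0.0561 CPM in the PDGF-BB library of P16, which is 1 count against 0 in the other libraries. This last value lies at the floor of counting.

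The responses to PDGF-BB and to angiotensin II in control cells differed in a direct test for 2 members. Ace differed by 1.93 log2 units, with PDGF-BB above angiotensin II (edgeR's quasi-likelihood test, adjusted p = 0.000464, higher in 4 of 4 batches). Agtrap differed by -0.45 (adjusted p = 0.000444, lower in 4 of 4 batches).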

How the results depend on the processing

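Over 55 log2 fold changes, 348 of the recalculated values outside leave-one-out fits kept direction and side of the threshold, 4 lost a call, 4 gained one and 8 changed sign. In leave-one-out fits 402 kept both, 27 lost a call and 44 changed sign. Member counts moved by over 1.5 times under 3 settings. With only the groups compared, 0 were called under overexpression, where 66 of 13815 genes were called. With no filter, 2 were called under untreated long knockdown (3051 of 32656). With batch as a replicate block, 5 were called under long knockdown with angiotensin II (6238 of 15103). Smaller moves under untreated long knockdown gave 3 with DESeq2 (4024 of 18062 genes called), with a mean CPM of at least 1 (3667 of 13016) and with only the groups compared (3246 of 14216). The block gave 5 there (6126 of 15103). Long knockdown with angiotensin II gave 4 without P19 (6049 of 15159 genes called). It gave 2 with a mean CPM of at least 1 (3958 of 13016) or only the groups compared (3397 of 14143). PDGF-BB gave 2 with only the groups compared (6284 of 14042). Enpep was not tested under long knockdown with a mean CPM of at least 1 or only the groups compared. Agt was not tested under PDGF-BB with only the groups compared. The lower counts in those fits come from members left untested, not from calls lost. Leaving out single libraries gave 0 to 1 members called under overexpression. It gave 2 to 3 in each long knockdown comparison and under PDGF-BB. The block called Atp6ap2 under long knockdown untreated (adjusted p = 0.0407), and Ace and Atp6ap2 under long knockdown with angiotensin II (adjusted p = 0.0392 and 0.0407), and changed no other call among members. Apart from members left untested, the cause of these changes was not tested.

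Values that changed sign were all uncalled. Atp6ap2 under overexpression was -0.00 with RLE scaling and -0.01 with no filter, with a mean CPM of at least 1 and with only the groups compared. Enpep under angiotensin II in knockdown cells was 0.00 with no filter and 0.10 with the block. The Atp6ap2 difference between arms was 0.01 with no filter and 0.02 without P19. Leave-one-out ranges that crossed 0 in run 2 were -0.60 to 0.84 for Ace and -1.72 to 0.05 for Enpep in the libraries labelled total CASC15 knockdown, -0.12 to 0.80 for Ace and -0.11 to 0.15 for Atp6ap2 under overexpression, and -0.10 to 0.02 for Agtrap and -1.27 to 0.50 for Enpep between the controls. For angiotensin II in control cells they were -0.45 to 0.08 (Ace) and -0.17 to 0.11 (Atp6ap2). In knockdown cells they were -0.52 to 0.06 (Agt), -0.13 to 0.10 (Atp6ap2) and -0.42 to 0.45 (Enpep), and over both arms -0.10 to 0.05 (Atp6ap2). For the difference between arms they were -0.04 to 0.54 (Agt), -0.13 to 0.15 (Atp6ap2) and -0.05 to 0.05 (Agtrap). For PDGF-BB, Atp6ap2 ran from -0.30 to 0.04 against no treatment and from -0.28 to 0.05 against angiotensin II.

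Depth limits Agt, Enpep and the 4 untested genes most. Agt held 1 to 13 counts per library in run 3 control cells and Enpep 0 to 4. Leaving out 1 library ended the call of Agt under PDGF-BB in 5 fits. It ended that of Enpep in 7 fits under untreated long knockdown and in 5 under long knockdown with angiotensin II. Ace, at 23 counts or more, lost its untreated long knockdown call in 6 fits, while Agt kept its long knockdown calls in all. The part of depth in these losses was not tested. Where a fit left a group of 2 with 1 library, that library was assumed to vary like the other groups.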
